A study of Mus musculus with 2 samples.

Results

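A list of 10 imprinted genes was placed on a map of chromatin domain boundaries from olfactory sensory neurons of the mouse. The genes were H19, Igf2, Kcnq1ot1, Cdkn1c, Dlk1, Meg3, Peg3, Snrpn, Grb10 and Igf2r, which are imprinted genes chosen by name because CTCF or domain organisation is known to take part in their control. All 10 matched a gene of the GENCODE M21 annotation on GRCm38, of 53843 annotated genes of any biotype on the autosomes and X. Of the 10, 7 are protein-coding and 3 are noncoding. They belong to 7 loci on 4 chromosomes, with 6 of the 10 genes on chromosome 7.

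The boundaries came from in situ Hi-C with DpnII, in which fixed chromatin is cut, neighbouring ends are ligated, and the joined fragments are sequenced as contacts. The cells were mature neurons that express the odorant receptor Olfr17 (P2), sorted by flow cytometry from the olfactory epithelium of adult P2-GFP mice of the strain 129P2/OlaHsd, of mixed sex and untreated. There was 1 group, with 2 biological replicates of 23000 and 20000 cells, fixed in 1% formaldehyde. The submitters merged the contacts of both replicates before calling boundaries, so each value below comes from 1 pooled list of 7576 boundaries, no spread between animals can be measured, and no test was possible. The number of contacts is unknown, and the Hi-C map does not separate the maternal from the paternal chromosome. The list holds no expression values, so the labelled cell type was not checked against marker genes.

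Genomic imprinting is expression of a gene from only the maternal or only the paternal copy, set by DNA methylation that is laid down in the germ line at an imprinting control region. CTCF is a zinc finger protein that binds such regions in unmethylated form at some loci and is found at many domain boundaries, where it halts the loop extrusion carried out by cohesin. In other loci a long noncoding RNA made from one parental copy silences its neighbours in cis.

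A boundary is a bin of 5 kb across which contacts are depleted. Each carried a score without a stated unit, between 0.20 and 4.38, and a class. Boundaries scoring above 0.5 were Strong and the others Weak. Distances run from the annotated transcription start site (TSS, the 5′ end of the gene) to the midpoint of the bin, and the interval of a gene is the stretch between the nearest boundary on its left and on its right in genome direction.

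The 10 genes lay 1.45 to 139 kb from their nearest boundary, and 76.2% of all genes lay nearer than the farthest of them. Cdkn1c was nearest to a boundary, at 1.45 kb. Grb10 followed at 26.2 kb, Meg3 at 31.5 kb, Snrpn at 32.3 kb, Peg3 at 42.9 kb and Igf2r at 82.8 kb. The farthest were Igf2 at 100.7 kb, H19 at 111 kb, Dlk1 at 119.7 kb and Kcnq1ot1 at 139 kb. Meg3 and Snrpn differed by less than the 5 kb width of a bin, so their order is not resolved.

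The median distance of the imprinted genes was 62.9 kb, against 70.7 kb over all genes. One of the 10 genes, Cdkn1c, had a boundary within 25 kb of its TSS, against 19.7% of all genes and 23.9% of protein-coding genes. Cdkn1c was also the 1 gene with a boundary within 10 kb, against 8.86% of all genes. Within 50 kb the count was 5 of 10, against 37.0%, and within 100 kb it was 6 of 10, against 64.3%. At 10 and 100 kb the shares are near the background, at 25 kb below it and at 50 kb above it, in each case by 1 or 2 genes of the 10. The nearest boundary was Strong for 7 of 10 imprinted genes, beside 60.5% of all genes. It lay upstream of the TSS in 4 of the 10 and downstream in the other 6, and the share over all genes was not computed.

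**Figure D1:**
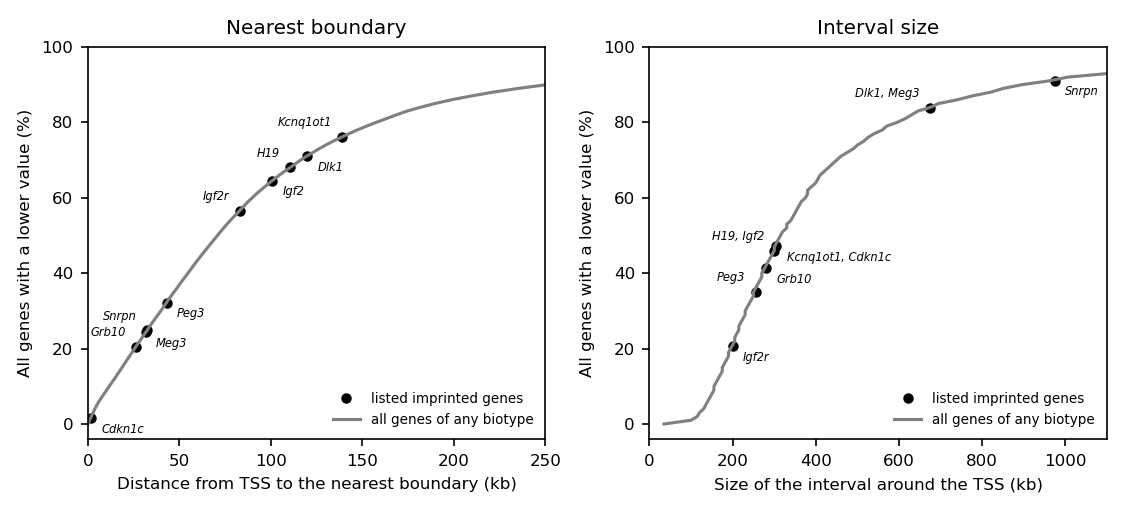
Left, distance from the TSS to the nearest boundary (kb) and right, size of the interval around the TSS (kb), each against the percentage of all 53843 genes (intervals: genes with a boundary on both sides) with a lower value. Black points are the 10 imprinted genes placed on the grey curve of all genes. Cdkn1c sits at the low end at 1.45 kb and Snrpn near the high end of interval size at 975 kb.

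The intervals around these genes measured 200 to 975 kb. Their median was 302.5 kb over the 10 genes, against 315 kb over all genes. Because partners share an interval, the 10 genes lay in 7 distinct intervals bounded by 14 distinct boundaries. Of those 14 boundaries, 8 were Strong (57.1%), against 53.4% of the whole list, and their median score was 0.573 against 0.545. The scores ran from 0.227 to 1.07, and 78.9% of the whole list scored below the highest of them.

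Flank strength nevertheless differed between loci. The 4 genes of the Kcnq1 and Dlk1 loci had Strong boundaries on both sides. Snrpn had a Weak boundary on either side, and H19, Igf2, Peg3, Grb10 and Igf2r had 1 of each kind. Counted by interval, both ends were Strong in 2 of 7, against 28.9% of all intervals, and both were Weak in 1 of 7, against 22.2%.

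**Figure D2:**
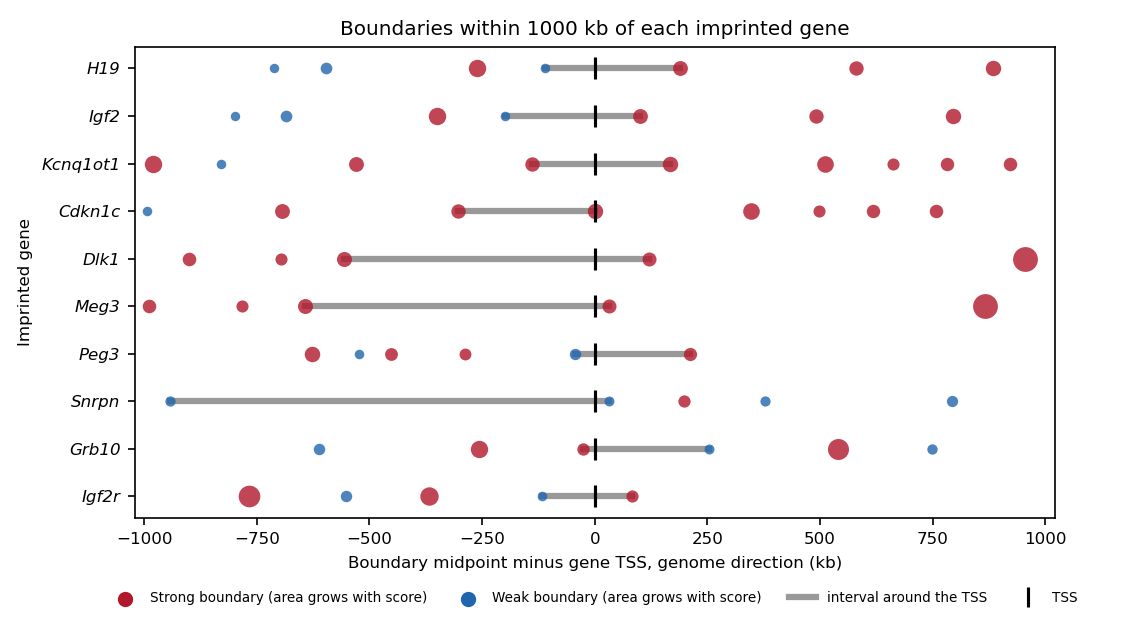
Each row is an imprinted gene with its TSS as a black tick at 0, and each point is a boundary at its distance from that TSS in genome direction (kb). Red marks Strong and blue marks Weak boundaries, point area grows with the score, and the grey bar is the interval that holds the TSS. The bar of Snrpn is the longest at 975 kb, and the tick of Cdkn1c falls on a boundary.

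**Figure D3:**
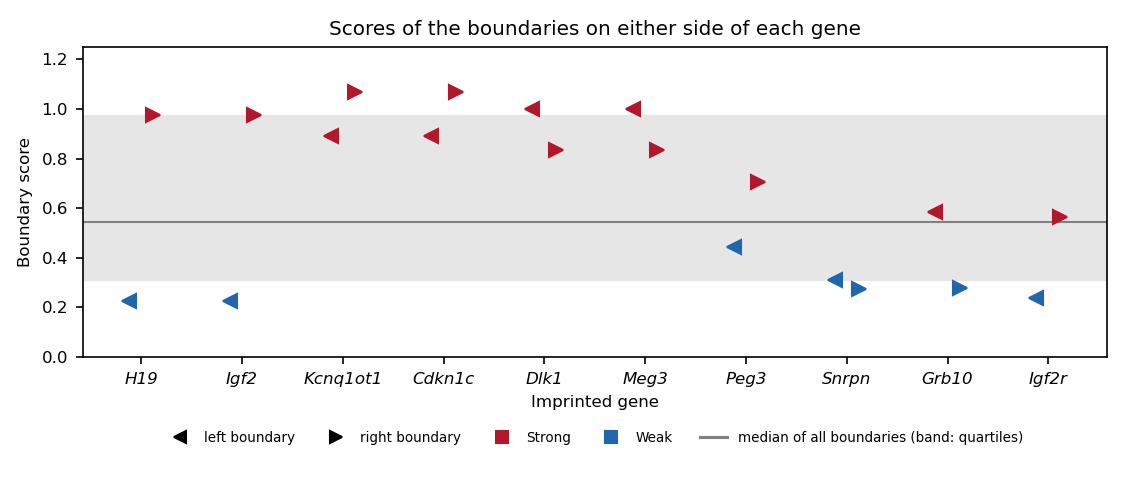
Scores (no unit) of the left and right flanking boundary of each gene, as triangles pointing left or right, in red for Strong and blue for Weak. The line and band are the median and quartiles of all 7576 boundaries, and the lowest point is the left boundary shared by H19 and Igf2, at 0.227.

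The Igf2 and H19 locus is the textbook case of control by CTCF. Igf2 encodes an insulin-like growth factor and is expressed from the paternal copy, while H19 is a noncoding RNA expressed from the maternal copy. On the unmethylated maternal chromosome CTCF binds the control region between the genes and keeps Igf2 from enhancers on the far side of H19. Here both genes, on the minus strand of chromosome 7 (H19 at chr7:142575529-142578143 and Igf2 at chr7:142650766-142666816), lay in the same interval of 300 kb. Their TSSs were 88.7 kb apart with 0 boundaries between them. Gene pairs at a like separation shared an interval in 68.0% of 33750 cases, so a shared interval at this spacing is the common outcome.

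The left boundary of that interval (chr7:142465001-142470000) was Weak with a score of 0.227, and only 7.88% of all boundaries scored lower. It lies inside Lsp1, which encodes a leukocyte actin-binding protein, 111 kb from the H19 TSS and 199 kb from that of Igf2. The right boundary (chr7:142765001-142770000) was Strong at 0.976, 189 kb from H19 and 100.7 kb from Igf2. The insulin gene Ins2, whose annotated 5′ end was 24.1 kb away, was the nearest coding gene there. The interval also held Ins2, the antisense transcript Igf2os, the noncoding RNA Nctc1 and the mitochondrial ribosomal protein gene Mrpl23, so 6 of the 7 genes listed for this locus were together. Th, for the enzyme tyrosine hydroxylase, lay beyond the right boundary. With Strong boundaries alone the interval grew to 450 kb and the distance of H19 to 189 kb.

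CTCF-like letters were searched on both strands with a core CTCF consensus of 12 letters and a 14-letter extended CTCF form, wide enough for sites known from the H19 control region. Of 3439 extended matches in the genome, 1317 overlapped a core match. In the 10 kb upstream of the H19 TSS there were 4 extended matches, all on the minus strand, at 2.17, 2.62, 3.65 and 3.89 kb. At least 4 were found upstream of 3 of 53843 genes (0.00557%). These were H19, the microRNA gene Mir675 inside H19, which sees the same sites, and Gm25810 on chromosome 16. Since the extended form was chosen to take in the H19 sites, their presence here is not a finding, and the share only describes how rare such clusters are.

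No boundary was called at this cluster of letters in the pooled map. The matches lay 113 to 115 kb from the left and 185 to 187 kb from the right boundary. A core match was present in the same window upstream of 6 of the 10 genes (H19, Igf2, Kcnq1ot1, Cdkn1c, Grb10 and Igf2r), against 36.4% of all genes. Matches in soft-masked repeats, which hold 70.4% of all core matches in the genome, were not left out of this count. A match is a resemblance in sequence and not measured binding. Neither flanking boundary of the interval had a core or extended match within 10 kb of its midpoint.

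The Kcnq1 locus is the next imprinted cluster along chromosome 7. Kcnq1ot1 is a long antisense RNA made from the paternal copy that silences neighbours in cis, and Cdkn1c encodes a cyclin-dependent kinase inhibitor expressed from the maternal copy. Kcnq1ot1 (chr7:143203458-143296549, minus strand) and Cdkn1c (chr7:143458339-143461050, minus strand) shared an interval of 305 kb, with TSSs 164.5 kb apart. Of 59880 gene pairs at a like separation, 45.3% shared an interval. Both boundaries of that 305 kb interval were Strong. The Cdkn1c TSS lies inside the 5 kb bin of the right one. The sharing therefore holds by bin midpoints, and the side on which Cdkn1c falls is not resolved.

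Cdkn1c was the exception in distance. The right boundary of the interval (chr7:143460001-143465000, score 1.07) contains its TSS, 1.45 kb from the midpoint, and 78.9% of boundaries scored lower. A TSS inside a boundary bin was found for 2.74% of all genes, and 1.60% of genes lay nearer to a boundary. All 5 annotated Cdkn1c starts were within 3.19 kb of the midpoint. Within 10 kb of that midpoint stood 2 core and 2 extended matches, at 1.59 and 4.00 kb to its right and on the minus strand, the core and extended ones overlapping. That strand points into the interval. These are the same sites as the matches in the 10 kb upstream of the Cdkn1c TSS. At least 2 extended matches were present at 0.277% of boundaries (21 of 7576). That cutoff was not in the plan and equals the count at this boundary, so the share is only a description.

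The left boundary (chr7:143155001-143160000, score 0.891) lies inside Kcnq1, which encodes a potassium channel subunit, 51.1 kb from the Kcnq1 TSS. The TSS of Kcnq1ot1 was 139 kb from this boundary and 166 kb from the right one. Of the 12 genes listed for the locus only Kcnq1ot1 and, by bin midpoints, Cdkn1c were in this interval. Kcnq1 itself began in the interval on the left, of 390 kb, with the transcription factor gene Ascl2, the tetraspanin genes Cd81 and Tspan32, the channel gene Trpm5, and Tssc4. On the right, an interval of 345 kb held the transporter gene Slc22a18, the placental growth regulator Phlda2, the histone chaperone gene Nap1l4, and Osbpl5. The listed genes thus fell into 3 neighbouring intervals, all with Strong boundaries.

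The promoter of Kcnq1ot1 is shown because it lies in the imprinting control region of the locus and starts the RNA inside the interval that excludes the Kcnq1 start. The 250 bases before its RefSeq start (GRCm38.p6, chr7:143296548-143296797, minus strand, CpG pairs in capitals) hold 5 CpG pairs, beside a median of 6 over 32851 RefSeq promoters of the same length.
Kcnq1ot1: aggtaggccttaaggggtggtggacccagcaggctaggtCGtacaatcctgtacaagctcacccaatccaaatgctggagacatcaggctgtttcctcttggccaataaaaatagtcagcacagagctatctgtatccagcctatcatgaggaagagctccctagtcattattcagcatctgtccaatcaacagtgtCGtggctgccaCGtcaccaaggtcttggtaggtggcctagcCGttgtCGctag

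Between the TSSs of Igf2 and Kcnq1ot1 stood 2 Strong boundaries. These TSSs were 629.7 kb apart, and 7.34% of 197382 gene pairs at a like separation shared an interval. The 390 kb interval between held Th of the Igf2 side together with 6 genes listed with Kcnq1, so the boundaries did not fall between the listed genes of the neighbouring clusters.

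**Figure D4:**
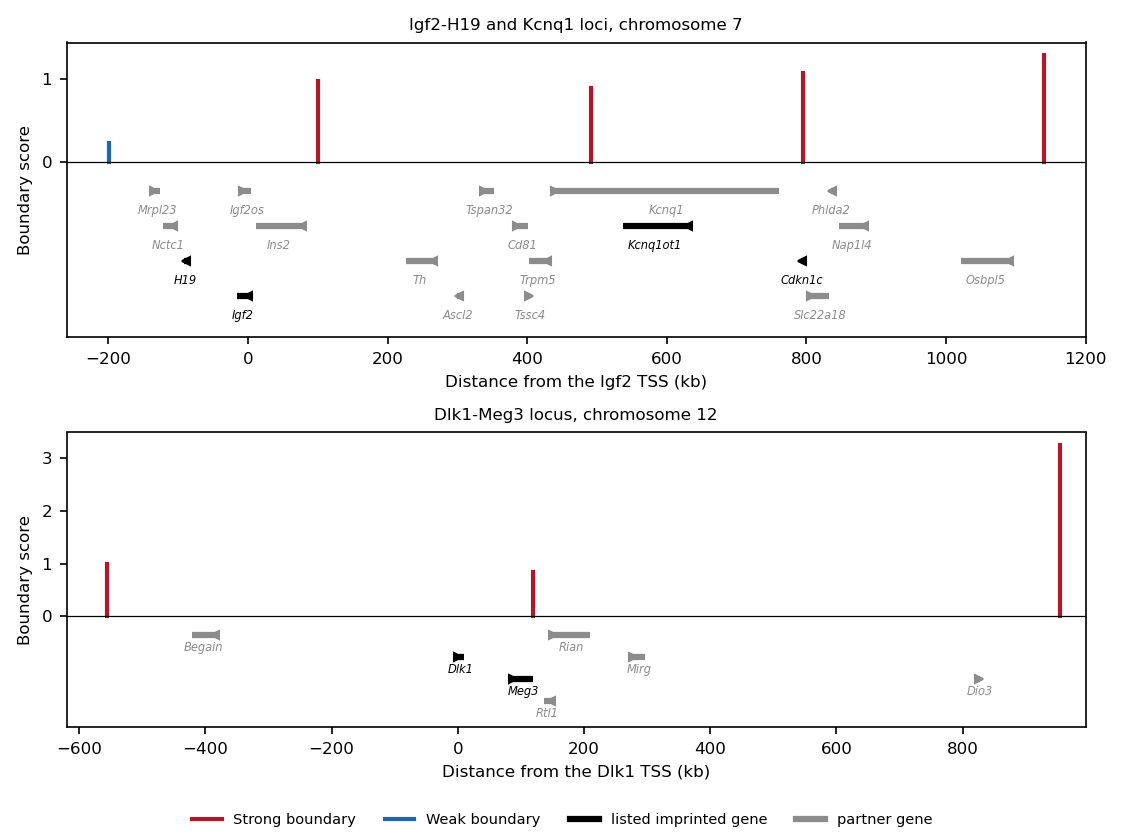
Boundaries (upright lines, height is the score without a unit) and genes (bars with an arrowhead at the TSS) at the Igf2-H19 and Kcnq1 loci, above, and the Dlk1-Meg3 locus, below, by distance from the named TSS (kb). Imprinted genes of the list are black and partner genes grey, Strong boundaries red and Weak ones blue. No line stands between H19 and Igf2, between Kcnq1ot1 and Cdkn1c, or between Dlk1 and Meg3. Lines mark bin midpoints, and the Cdkn1c TSS lies within the 5 kb bin of the line on its right.

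Dlk1 and Meg3 form another pair. Dlk1, a transmembrane protein related to Notch ligands, is expressed from the paternal copy and Meg3, a long noncoding RNA, from the maternal copy, under a control region between them. Dlk1 (chr12:109452823-109463336, plus strand) and Meg3 (chr12:109541001-109571726, plus strand) shared an interval of 675 kb. Their TSSs were 88.2 kb apart with 0 boundaries between, and 68.1% of 33547 gene pairs at a like separation shared an interval. The interval was large: 83.9% of all genes had a smaller one.

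The pair sat at its right end. The left boundary (chr12:108895001-108900000, score 0.999) was 555 kb from Dlk1 and 644 kb from Meg3, inside Wdr25 and 3.33 kb from the TSS of Wars, which encodes a tryptophan tRNA synthetase. The right boundary (chr12:109570001-109575000, score 0.834) was 119.7 kb from the Dlk1 TSS and 31.5 kb from the Meg3 TSS. Its bin covered the annotated 3′ end of Meg3, which was 0.774 kb from the midpoint, and a boundary within 1 kb of the 3′ end was found for 0.834% of genes. One core match lay 5.70 kb from the midpoint on the plus strand, which points out of the interval.

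That boundary parted Dlk1 and Meg3 from some of the other listed genes of the cluster. Begain, which lies on the far side of Dlk1, was in the same interval as the pair. The retrotransposon-derived gene Rtl1, the small nucleolar RNA host Rian, the microRNA host Mirg and the thyroid hormone deiodinase gene Dio3 all lay beyond it, in an interval of 835 kb. The far end of that second interval (chr12:110405001-110410000) had a score of 3.25, rank 7 of 7576 in the list and the highest at any interval holding a gene listed with these loci.

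The Dlk1 and Meg3 promoters are shown because the genes are neighbours in 1 interval with opposite parental expression. Over the 250 bases before the RefSeq start (GRCm38.p6, plus strand, CpG pairs in capitals) Dlk1 at chr12:109452573-109452822 held 8 CpG pairs and Meg3 at chr12:109540746-109540995 held 10. Of all RefSeq promoters, 62.2% had fewer than Meg3, and neither promoter held a core or extended match.
Dlk1: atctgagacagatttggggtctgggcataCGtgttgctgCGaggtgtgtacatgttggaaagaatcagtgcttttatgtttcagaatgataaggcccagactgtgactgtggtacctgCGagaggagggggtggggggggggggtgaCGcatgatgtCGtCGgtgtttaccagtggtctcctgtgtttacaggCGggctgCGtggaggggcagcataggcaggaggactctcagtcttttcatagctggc
Meg3: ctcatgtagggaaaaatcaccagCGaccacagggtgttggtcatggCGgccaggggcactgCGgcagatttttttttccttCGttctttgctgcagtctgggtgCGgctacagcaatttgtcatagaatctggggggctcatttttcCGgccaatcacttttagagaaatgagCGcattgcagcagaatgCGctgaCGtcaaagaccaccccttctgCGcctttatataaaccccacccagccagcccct

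Grb10 was the only one of the 10 imprinted genes with the midpoint of a boundary inside its body. It encodes an adaptor protein that dampens insulin receptor signalling and, in the mouse, is expressed from the maternal copy in most tissues and from the paternal copy in neurons, where a different promoter is used. The gene (chr11:11930508-12038683, minus strand) contains a Strong boundary (chr11:12010001-12015000, score 0.584) 26.2 kb from its TSS. A boundary midpoint lay inside 6.43% of all genes, but Grb10 is long, and 29.7% of 696 genes of like length had one.

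The boundary split the annotated starts of the gene. Of 9 distinct transcript starts, 5 lay on its right, in the interval of the 5′ end, at 13.8 to 26.2 kb from the midpoint. The other 4 lay on its left, at 41.9 to 73.9 kb. The interval of the 5′ end measured 280 kb, and its right boundary (chr11:12290001-12295000, Weak, score 0.278, inside Cobl) was 254 kb from the Grb10 TSS. No other listed gene shared it. Ddc, for the enzyme that makes dopamine from its precursor, and Fignl1 were 1 boundary away on the left, Ikzf1, a lymphoid transcription factor gene, was 2 away, and Cobl, an actin regulator gene, was 1 away on the right. With Strong boundaries alone the interval was 565 kb.

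Both RefSeq promoters of Grb10 were on the right of the boundary, and their letters differ. Over 250 bases before the start (GRCm38.p6, minus strand, CpG pairs in capitals) the upstream promoter at chr11:12037421-12037670 held 40 CpG pairs, more than 98.7% of RefSeq promoters. The second, at chr11:12027972-12028221 and 15.5 kb from the boundary midpoint, held 8.
Grb10 upstream promoter: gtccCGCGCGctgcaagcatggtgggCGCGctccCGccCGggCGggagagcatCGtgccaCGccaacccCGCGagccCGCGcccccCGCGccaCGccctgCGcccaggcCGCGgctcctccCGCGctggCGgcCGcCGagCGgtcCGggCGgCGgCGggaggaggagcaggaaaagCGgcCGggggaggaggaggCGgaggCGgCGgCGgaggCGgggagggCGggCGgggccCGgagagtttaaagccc
Grb10 second promoter: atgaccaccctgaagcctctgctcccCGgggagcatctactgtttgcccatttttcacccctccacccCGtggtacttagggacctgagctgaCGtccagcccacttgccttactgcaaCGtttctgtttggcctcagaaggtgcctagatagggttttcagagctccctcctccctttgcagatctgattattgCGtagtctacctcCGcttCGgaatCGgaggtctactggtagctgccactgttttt

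One core match stood near the Grb10 boundary, 5.76 kb from its midpoint and within the gene. It is shown with 20 bases on each side (GRCm38, chr11:12006714-12006765, minus strand, core match in capitals). The letters are outside soft-masked repeats, and they point out of the interval of the Grb10 TSS.
Grb10 left boundary: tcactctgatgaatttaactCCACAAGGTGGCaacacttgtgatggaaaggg

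Peg3 encodes a zinc finger protein expressed from the paternal copy, with a start almost back to back with that of Usp29, a deubiquitinase-family gene also expressed from the paternal copy. Peg3 (chr7:6703892-6730431, minus strand) lay in an interval of 255 kb with Usp29 and Zim1, a maternally expressed zinc finger gene. The TSSs of Peg3 and Usp29 were 0.147 kb apart. The left boundary (chr7:6685001-6690000, Weak, score 0.443) was 42.9 kb from Peg3 and inside Zim1, 8.95 kb from the Zim1 TSS. The right boundary (chr7:6940001-6945000, Strong, score 0.705) was 212 kb away and inside Usp29. The coding TSS nearest to it was that of the kinase gene Aurkc, 52.8 kb from its midpoint.

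Both edges of the Peg3 interval therefore cut a partner gene. Zim2 began beyond the left boundary. Zim3 and the pseudogene Zfp264 began beyond the right one, in an interval of 3520 kb. With Strong boundaries alone the nearest one to Peg3 was 212 kb away and the interval was 500 kb.

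Core matches stood at both Peg3 boundaries, 1 at the left and 3 at the right. Of these 4, 3 are shown to compare their letters (GRCm38, 20 bases on each side, core match in capitals). The left one is at chr7:6688917-6688968 on the minus strand, 1.44 kb from the midpoint and in a soft-masked repeat, and points out of the interval. The right ones are at chr7:6937296-6937347 on the minus strand, which points in, and at chr7:6940915-6940966 on the plus strand, which points out, both outside repeats.
Peg3 left boundary: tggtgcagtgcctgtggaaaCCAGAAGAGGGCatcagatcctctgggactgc
Peg3 right boundary, first: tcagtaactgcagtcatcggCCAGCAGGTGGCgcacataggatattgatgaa
Peg3 right boundary, second: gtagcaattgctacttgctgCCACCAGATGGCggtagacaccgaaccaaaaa

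Snrpn had the largest interval of the 10 genes. It encodes a splicing protein of neurons, is expressed from the paternal copy, and begins a transcription unit that continues into Snhg14, a long RNA that carries clusters of small nucleolar RNAs and runs antisense to Ube3a. In neurons this RNA silences the paternal copy of Ube3a, a ubiquitin ligase gene. The interval measured 975 kb, and 91.1% of all genes had a smaller one. It held Snrpn (chr7:59982495-60140219, minus strand), Snurf, Snhg14 and Ube3a together, with 0 boundaries along the way.

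Both edges were Weak. The left boundary (chr7:59195001-59200000, score 0.310) was 943 kb from the Snrpn TSS and 31.2 kb from that of Ube3a. The right boundary (chr7:60170001-60175000, score 0.273) was 32.3 kb from the Snrpn TSS. Neither had a core match within 10 kb. With Strong boundaries alone the nearest boundary to Snrpn was 197 kb away and the interval was 1350 kb.

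The start used for Snrpn changes these distances. GENCODE gives 2 distinct starts, 135 kb apart, and the 32.3 kb given for Snrpn is from the first. The second, inside the interval and beside the Snurf TSS, was 167 kb from the nearest boundary. Of these 2, only the first places Snrpn within 50 kb of a boundary. RefSeq also lists a start about 310 kb upstream of the first, which lay in another interval. The other paternally expressed genes of the region, Ndn and Magel2 of the MAGE family, the zinc finger gene Mkrn3 and Peg12, were 2206 to 2324 kb from the Snrpn TSS with 6 boundaries between. They shared an interval of their own of 530 kb, with Weak boundaries of scores 0.252 and 0.205. Atp10a, a lipid transporter gene beyond Ube3a, was 2 boundaries away.

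The Snrpn interval was also unlike the others in sequence. It held 226 annotated genes, of which 4 were coding. Soft-masked repeats made up 58.2% of its bases, more than in 98.8% of all intervals, and 5.13% of its bases are undetermined (N) in the reference. Repeats and gaps reduce the reads that can be placed, and their part in the scores here was not tested.

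Igf2r had the smallest interval, at 200 kb. It encodes the receptor that clears insulin-like growth factor 2 and, in most tissues, is expressed from the maternal copy. In those tissues the antisense RNA Airn, started inside Igf2r on the paternal copy, silences Igf2r. In the placenta Airn also silences the transporter genes Slc22a2 and Slc22a3. Which copy of Igf2r these neurons express was not measured. Igf2r (chr17:12682406-12769664, minus strand) shared its interval with the TSS of Airn. The left boundary (Weak, score 0.237) was 117 kb from the Igf2r TSS. The right boundary (chr17:12850001-12855000, Strong, score 0.563) was 82.8 kb away.

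The right boundary lay inside both Airn and Mas1, an angiotensin peptide receptor gene, so that Airn began in the Igf2r interval and ended outside it. Slc22a2 and Slc22a3 were 1 boundary away on the left, Mas1 was 1 away on the right, and Plg, for plasminogen, was 2 away on the left. With Strong boundaries alone the interval was 450 kb.

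At the right Igf2r boundary stood 3 core matches, and they are shown because they hold the same 12 letters as the one at the left Peg3 boundary (GRCm38, 20 bases on each side, core match in capitals). They are at chr17:12848451-12848502 on the plus strand, chr17:12856263-12856314 on the minus strand and chr17:12858094-12858145 on the plus strand. The minus-strand match points into the interval.
Igf2r right boundary, first: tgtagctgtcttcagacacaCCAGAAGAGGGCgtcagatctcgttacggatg
Igf2r right boundary, second: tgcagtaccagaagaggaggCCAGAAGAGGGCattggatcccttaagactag
Igf2r right boundary, last: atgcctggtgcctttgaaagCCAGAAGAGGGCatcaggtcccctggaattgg

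This word, CCAGAAGAGGGC, made up 50358 of the 88670 core matches in the genome (56.8%), and 99.6% of its copies were in soft-masked repeats. B2, a mouse short interspersed repeat, is known to carry CTCF-like letters. The 3 other words shown above, at Peg3 and Grb10, were much rarer, at 490 to 1400 copies each.

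**Figure D5:**
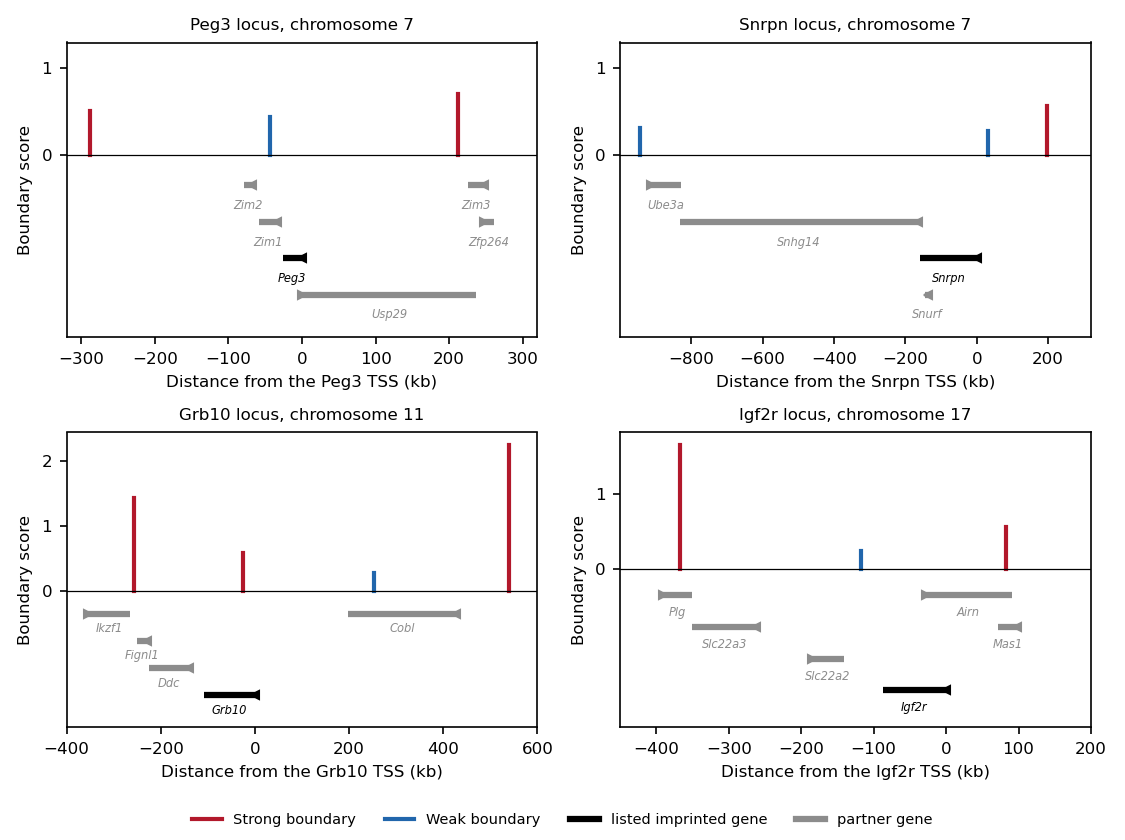
Boundaries (upright lines, height is the score without a unit) and genes (bars with an arrowhead at the TSS) at the Peg3, Snrpn, Grb10 and Igf2r loci, by distance from the TSS of the named gene (kb). Listed imprinted genes are black and the partner genes named in the text grey, Strong boundaries red and Weak ones blue. A boundary stands inside Grb10, and Airn and Usp29 each run across 1.

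Over the 14 flanking boundaries, 8 had a core match within 10 kb, against 58.0% of all boundaries. An extended match was at 1 of the 14, the one at Cdkn1c, against 5.21% of all. Outside soft-masked repeats, 6 of the 14 had a core match, against 30.6% of all boundaries. In none of the 7 intervals did core matches point in at both ends, against 18.3% of all intervals. Each of these counts rests on few boundaries and describes this list alone.

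At the annotated gene starts, partner genes lay somewhat farther from boundaries at the median. With median transcript starts the median of the 10 imprinted genes was 99.1 kb, and that of partner genes was not recomputed. Of 53 genes listed over the 7 loci all were found in the annotation, and 43 were not among the 10. Their median distance to a boundary was 88.3 kb, beside 62.9 kb for the 10 imprinted genes and 70.7 kb for all genes, and 6 of the 43 lay within 25 kb, against 19.7% of all genes. A boundary midpoint lay inside 8 of the 43 (18.6%), against 6.43% of all genes and 12.98% of protein-coding genes, with no match for gene length. In all, 15 of the 43 had their TSS in the interval of a listed imprinted gene.

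The 7 intervals held a median of 12 genes, against 5 over all 7556 intervals, but they were picked because they hold genes. Their median number of coding genes was 2, as over all intervals, and their median soft-masked share was 30.8%, against 30.7%. Median GC content was 46.5%, against 42.5%. The Igf2 and H19 interval was among the poorest in repeats, with 16.0% of bases soft-masked, and 0.728% of intervals had less. The Kcnq1ot1 and Cdkn1c interval had 18.1%, with 2.53% of intervals lower. Grb10 had an interval with 3 annotated genes, the fewest of the 7.

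Promoter sequences were matched for 8 of the 10 genes, with 16 RefSeq promoters between them. None of the 16 held a core match in the 250 bases before its start, against 1.12% of all promoters. CpG counts ran from 0, at a second Meg3 start, to 40 at Grb10. Igf2r held 27, more than 91.4% of promoters.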

How the data were processed

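Per the labels and the submitters' processing notes, the authors pooled the contacts of 2 biological replicates, built 1 contact matrix on GRCm38 and derived the boundaries from it. The deposited table has a position, a class and a score for every boundary. The score has no stated unit. The aligner, the boundary caller, its window and the contact total were not given in the sources used here. Matrix, insulation and compartment tracks were not used here. In the values, Weak scores were at most 0.4996 and Strong scores at least 0.5002.

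Genes came from GENCODE M21 on the same build, with coordinates counted from 1. Distances, intervals and counts were computed with Python 3.11.15 and NumPy 2.4.6 and checked on simulated positions. Gene pairs and genes of like separation or length were within 10%. Soft-masked letters are those in lower case in the reference, which is of C57BL/6J, whereas the mice were 129P2/OlaHsd. Promoters are RefSeq entries on GRCm38.p6. The rule named all 10 genes, all partner genes and the coding gene nearest to each flanking boundary. One partner gene, which the counts include, is not reported here. The members and lists were chosen with earlier results of these data known. The shares for 3′ ends and for at least 2 extended matches at a boundary were not in the plan. Alternatives used Strong boundaries, a score at or above the median of 0.545, bin edges, other transcript starts, other distances, coding genes as background, each gene left out, and repeat-free matches, the last chosen after seeing the data.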

Additional observations from a re-analysis of the deposited data

How the results depend on the processing

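The 3 partner pairs shared an interval with other transcript starts and with whole gene bodies as well. Keeping only Strong or higher-scoring boundaries could not change this, because no boundary lay between the paired TSSs in the full list. The bin-edge setting did not alter how sharing was counted. For Kcnq1ot1 and Cdkn1c the sharing rests on bin midpoints. The Cdkn1c TSS lies inside a 5 kb boundary bin, so its side of that boundary is not resolved. The count of genes with a boundary within 25 kb was 1, and it was 5 of 10 at 50 kb (37.0% of all genes) and 6 at 100 kb. It was 2 from the nearest bin edge (21.4% of all genes), 3 from the transcript start nearest to a boundary (22.1%) and 2 from the median transcript start (19.2%), so its side of the background depends on the start used. The median distance was 42.2 kb for the transcript start nearest to a boundary (66.6 kb over all genes) and 99.1 kb for the median start (71.2 kb over all genes), on either side of the background. It was also on the other side of the median of coding genes, 59.2 kb. With Strong boundaries alone the median distance was 110.2 kb (127 kb over all genes) and the median interval 475 kb (605 kb over all genes). With scores at or above the median they were 110.2 kb (137 kb) and 507.5 kb (655 kb). Strong boundaries alone moved the distance of 3 genes and the interval of 6. Leaving out each gene in turn gave counts of 0, without Cdkn1c, to 1, median distances of 42.9 to 82.8 kb and median intervals of 300 to 305 kb. Core matches inside the 5 kb bin stood at 3 of the 14 boundaries (24.6% of all). No paired analysis was possible because the authors' list pools both replicates of 1 group. For the same reason leaving out a replicate was not run. The depth is unknown, so a boundary that was not called may be one that this map could not show.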
